A study of Mus musculus with 12 samples.

Results

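The genes described here encode proteins that copy DNA. They were chosen by name, from textbook roles in replication, and number 39, of which 38 are among the 18194 genes that the array names. The platform annotation used here pairs no probe set with Chaf1a, the large subunit of a histone chaperone, so it has no value. The other 38 genes had a probe set, and all 38 passed the brightness filter that left 11649 genes for testing.

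Expression was measured on 12 Affymetrix arrays hybridised with RNA from sorted mouse thymocytes. There were 6 groups of 2 arrays each, IkL/L and WT cells of stages DN3, DN4 and DP. IkL/L mice carry the L allele of the Ikaros gene Ikzf1 on both chromosomes and are called Ikaros-deficient by the submitters, whereas WT mice carry normal Ikaros. Neither genotype received a treatment, and strain and age are not given in the labels. Cells of 3 mice were combined for a sort, so an array averages over animals, and nothing in the labels says that the paired arrays of a group come from different pools. The p-values therefore measure the spread between arrays, which may be partly technical. Fewer cells in S phase and less of an RNA in each cell cannot be told apart in such samples.

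DN3 and DN4 thymocytes lack CD4 and CD8 on the surface, and DP thymocytes carry both. DN3 cells rearrange the T cell receptor beta gene, cells that succeed divide rapidly as they pass through DN4 into DP, and most DP cells then rest. Replication starts where the origin recognition complex, Cdc6 and Cdt1 load the ring of Mcm2 to Mcm7 on DNA. The ring becomes an active helicase with Cdc45 and the GINS complex, polymerases held by the PCNA clamp copy the strands, and ribonucleotide reductase and thymidylate synthase provide nucleotides. Many of these genes are transcribed in S phase under E2F factors, which the retinoblastoma family holds back in resting cells.

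The promoters of 4 members are shown as examples. Rfc3, Mcm3 and Pola1 carry exact E2F-type motifs and had the largest WT falls at the DP stage among members with such a motif. Rpa1 carries none and had the smallest WT change of the members. On its brightest probe set Rpa1 did not pass the test there. The 4 are thus extremes, and the contrast between them is no evidence of a relation between motif and fall. Other members do not follow that division, as given below. Each is the window of 300 bases from 250 before to 50 after the annotated start in RefSeq's GRCm38.p6 annotation, read 5′ to 3′ in the direction of transcription. All 4 genes lie on the minus strand, and each window covers sequence upstream of the gene and the first transcribed bases. Capitals mark matches on either strand to TTTCCCGC, TTTCGCGC, TTTGCCGC or TTTGGCGC.
Rfc3 (chr5:151651159-151651458): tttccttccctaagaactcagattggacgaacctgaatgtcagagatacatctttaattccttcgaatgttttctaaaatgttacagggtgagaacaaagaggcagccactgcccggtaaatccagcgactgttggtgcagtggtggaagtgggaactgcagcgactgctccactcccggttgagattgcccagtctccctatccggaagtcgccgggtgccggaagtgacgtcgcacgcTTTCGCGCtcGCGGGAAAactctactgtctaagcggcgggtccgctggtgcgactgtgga
Mcm3 (chr1:20820263-20820562): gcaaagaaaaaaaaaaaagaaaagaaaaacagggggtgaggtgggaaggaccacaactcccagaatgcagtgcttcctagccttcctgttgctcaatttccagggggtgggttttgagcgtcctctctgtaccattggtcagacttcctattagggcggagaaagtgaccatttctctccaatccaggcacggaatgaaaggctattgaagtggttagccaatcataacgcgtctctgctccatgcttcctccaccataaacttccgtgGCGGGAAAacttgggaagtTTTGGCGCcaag
Pola1 (chrX:93632106-93632405): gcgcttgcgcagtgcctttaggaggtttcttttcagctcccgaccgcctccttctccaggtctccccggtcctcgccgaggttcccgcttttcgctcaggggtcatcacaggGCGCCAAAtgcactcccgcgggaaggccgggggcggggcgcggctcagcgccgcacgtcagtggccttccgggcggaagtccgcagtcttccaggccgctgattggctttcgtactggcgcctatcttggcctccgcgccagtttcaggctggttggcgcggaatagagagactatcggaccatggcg
Rpa1 (chr11:75348334-75348633): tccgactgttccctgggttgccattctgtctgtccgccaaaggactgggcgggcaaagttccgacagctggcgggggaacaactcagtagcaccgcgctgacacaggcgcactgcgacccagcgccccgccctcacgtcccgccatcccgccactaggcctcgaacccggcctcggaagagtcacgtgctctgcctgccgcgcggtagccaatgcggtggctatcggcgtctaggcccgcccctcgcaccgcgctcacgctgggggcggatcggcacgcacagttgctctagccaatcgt
In Rfc3 one match begins at base 241 of the window and a second, on the opposite strand, at base 251, the annotated start itself. In Mcm3 the matches begin at bases 270 and 289, and in Pola1 the match begins at base 113. These matches overlapped no CCAAT, CHR or TGGGAA letters. A match to the shorter E2F letters lies within each of them. In Mcm3 a further shorter match on the opposite strand, at bases 293 to 299, overlaps the match that begins at base 289 and extends past it. In Pola1 further shorter matches lie outside the marked one, at bases 82 to 88, 130 to 136 and 266 to 272.

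A window was given for 32 of the 39 members, and 12 of these genes (37.5%) held a match to the E2F letters in at least 1 window: Cdc6, Cdt1, Lig1, Mcm3, Mcm5, Mcm6, Mcm7, Orc1, Pola1, Pold1, Rfc3 and Uhrf1. The same letters occurred in 2.6% of the 27025 genes with windows and in 4.77% of the 9454 tested genes with windows. The same letters without their first T, which lie inside the longer ones, were found in 62.5% of the members and in 19.4% of the tested genes. The CCAAT box, letters bound by NF-Y, occurred in 62.5% of members and 42.9% of tested genes. The CHR letters, TTTGAA or TTCGAA, found in promoters of mitotic genes, occurred in 15.6% of members and 16.5% of tested genes. TGGGAA, a core bound by Ikaros proteins, occurred in 43.8% of members and 26.5% of tested genes. A match is a string of letters in a window and does not show that a factor binds there. The 12 members with an E2F match had a median log2 difference between DP and DN4 cells of -1.68 in WT, against -1.40 for the 19 measured members that had a window without one. On the brightest probe set Mcm7 with 2 matches (-0.23) and Orc1 with 1 match (-0.48) did not pass at that step, whereas Tk1 (-2.30) and Mcm10 (-2.04), without a match, fell. Other probe sets of Mcm7 and Orc1 gave larger falls, as given below.

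The arrays carried the signs of their labels, with some departures. Il2ra, which encodes CD25 and defines DN3 cells, averaged 10.4 in IkL/L DN3 cells and 10.7 in WT DN3 cells on the log2 scale, against 5.17 in IkL/L DN4 cells and 5.97 in WT DN4 cells. Cd8a averaged 12.7 in IkL/L DP cells and 12.9 in WT DP cells, and 6.79 in IkL/L DN4 cells and 7.46 in WT DN4 cells. The targeted gene Ikzf1 read 11.23 and 11.23 on the IkL/L DN3 arrays, against 11.83 and 11.93 on the WT DN3 arrays. It read 11.22 and 11.18 on the IkL/L DN4 arrays, against 11.78 and 11.88 on the WT DN4 arrays. In DP cells it read 11.75 and 11.56 in IkL/L and 12.30 and 12.41 in WT. Its signal in IkL/L was 63.7% of WT in DN3, 64.5% in DN4 and 61.7% in DP cells, with adjusted p of 0.00911, 0.0101 and 0.00454 in limma, and the groups did not overlap at any stage. The 3 arrays labelled IkL/L replicate 2 stood apart from the rest in Y-linked genes, whose mean over 3 genes was 3.07 to 3.45 there and 6.59 to 8.36 on the other arrays. Results below are therefore also given without these 3 arrays where that changed them.

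The replication genes stood high in DN3 cells, highest in DN4 cells and lowest in DP cells, in both genotypes. Their mean log2 signal over 38 genes was 10.74 ± 0.039 in IkL/L and 10.60 ± 0.059 in WT DN3 cells (SD, n = 2 arrays each, here and below). In DN4 cells it was 11.08 ± 0.062 in IkL/L and 10.78 ± 0.058 in WT, and in DP cells 9.61 ± 0.15 in IkL/L and 9.42 ± 0.079 in WT. Of the 38 genes 33 had their highest group mean in IkL/L DN4 cells, 4 in WT DN4 cells and 1 in IkL/L DN3 cells. The lowest mean lay in WT DP cells for 29, in IkL/L DP cells for 7 and in WT DN3 cells for 2.

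**Figure D1:**
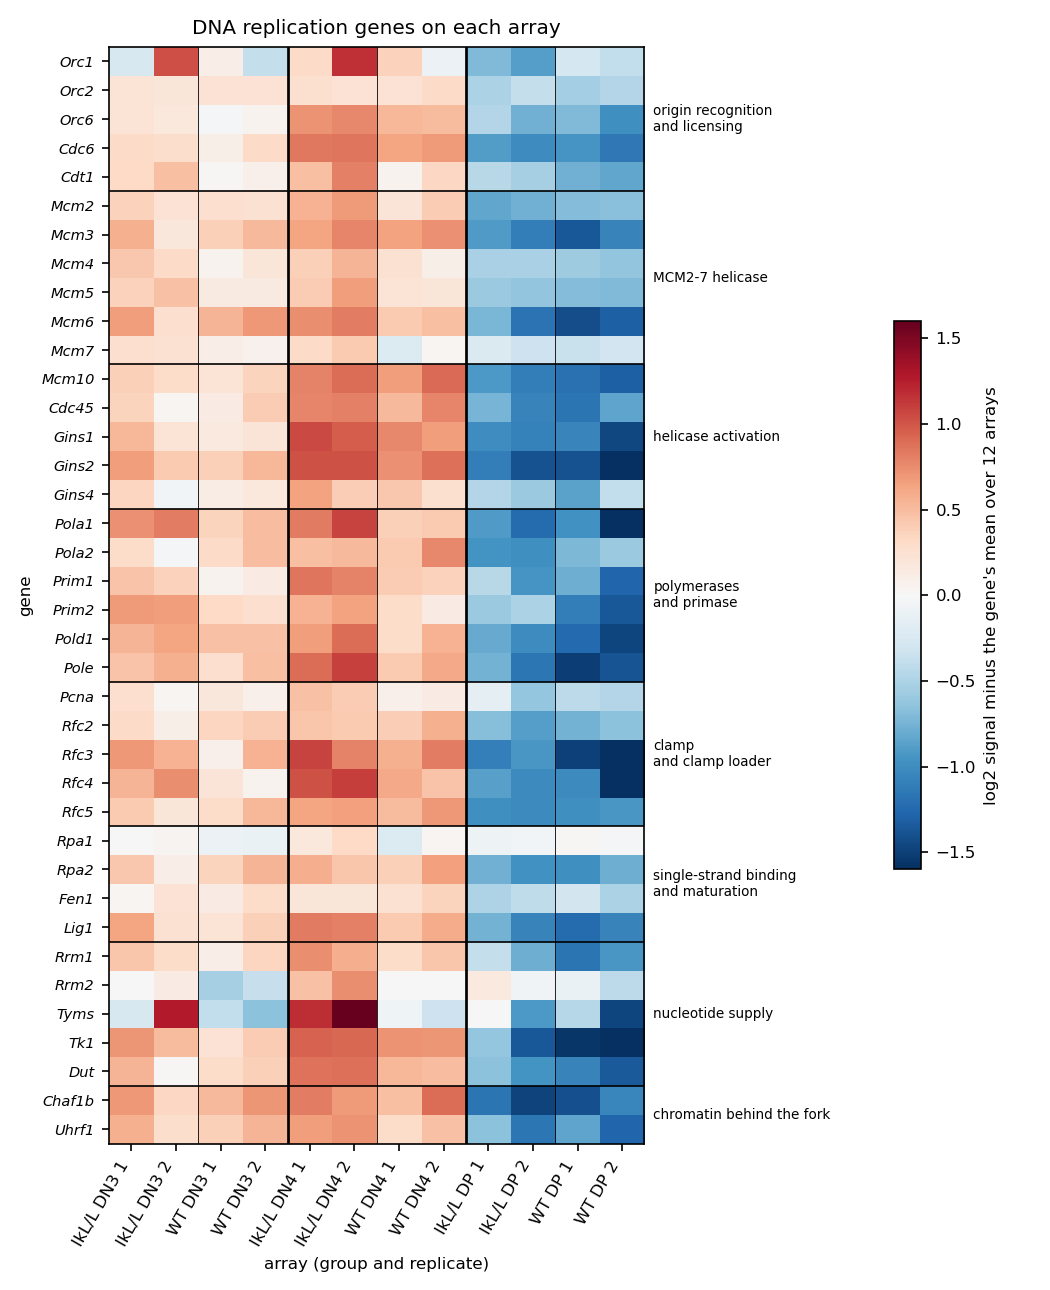
Log2 signal of 38 replication genes (rows, by role) on each of 12 arrays (columns), as the difference from the mean of that gene over the arrays, with the colour scale ending at 1.6 in either direction. The 4 DP columns are blue for nearly every gene, Rpa1 stays near 0 throughout, and Orc1 and Tyms are uneven between the arrays of IkL/L DN3 cells.

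The step between DN4 and DP cells was the largest movement. In IkL/L cells 37 of 38 members fell and none rose, where 26.0% of all tested genes fell. In WT cells 33 fell and none rose, where 33.2% of all genes fell. A call here is a Benjamini-Hochberg adjusted p under 0.05 over all tested genes in limma. The median difference over the members was -1.57 in IkL/L and -1.43 in WT on the log2 scale, which leaves 33.7% and 37.2% of the DN4 signal, beside medians over all tested genes of -0.04 in IkL/L and -0.15 in WT. The fall was at least 1 log2 unit for 31 members in IkL/L and 25 in WT, against 10.8% and 13.7% of all genes. Without the 3 IkL/L replicate 2 arrays 35 members fell in IkL/L and 34 in WT. The signal of the actin 3′ probe set minus the 5′ one, a sign of RNA length, was 2.26 and 2.64 in IkL/L DP cells against 1.93 and 2.39 in IkL/L DN4 cells, and 2.86 and 2.29 in WT DP cells against 1.74 and 1.93 in WT DN4 cells. With that signal as a covariate 38 members fell in IkL/L and 34 in WT.

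Gins2, a subunit of the GINS complex that activates the helicase, fell most. Its log2 signal was 7.85 and 7.56 in IkL/L DP cells against 9.96 and 9.97 in IkL/L DN4 cells, and 7.55 and 7.19 in WT DP cells against 9.69 and 9.83 in WT DN4 cells. All DP arrays thus lay below all DN4 arrays. The difference was -2.27 ± 0.16 in IkL/L and -2.39 ± 0.16 in WT (moderated SE), with adjusted p of 7.52e-07 and 2.93e-07 in limma. Tk1, the thymidine kinase of the salvage pathway, read 9.21 and 8.48 in IkL/L DP cells against 10.77 and 10.75 in IkL/L DN4 cells, and 8.27 and 8.22 in WT DP cells against 10.56 and 10.54 in WT DN4 cells. It fell by 1.92 in IkL/L and by 2.30 in WT. The 2 IkL/L DP arrays differed for this gene by more than the 2 WT DP arrays did.

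Rfc3, a subunit of the clamp loader, read 6.63 and 6.80 in IkL/L DP cells against 8.82 and 8.53 in IkL/L DN4 cells, and 6.24 and 6.10 in WT DP cells against 8.30 and 8.56 in WT DN4 cells. It fell by 1.95 in IkL/L and by 2.26 in WT, and again no DP array reached a DN4 array. Mcm10, which helps the helicase to start, read 8.51 and 8.32 in IkL/L DP cells against 10.21 and 10.32 in IkL/L DN4 cells, and 8.23 and 8.11 in WT DP cells against 10.09 and 10.32 in WT DN4 cells. Its difference was -1.85 ± 0.13 in IkL/L and -2.04 ± 0.13 in WT.

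Rpa1, the large subunit of the protein that coats single strands, had the narrowest range of the members, 0.35 log2 units over the 6 group means. It read 12.65 and 12.70 in IkL/L DP cells against 12.90 and 13.05 in IkL/L DN4 cells, and 12.75 and 12.71 in WT DP cells against 12.52 and 12.77 in WT DN4 cells. The difference of -0.30 in IkL/L had an adjusted p of 0.0679 and that of 0.09 in WT an adjusted p of 0.565 in limma, so neither passed. Both are values of the brightest probe set, and another Rpa1 probe set past the filter was called lower in WT. The partner of Rpa1, Rpa2, fell by 1.38 in IkL/L and by 1.40 in WT. The 4 other members without a call in WT were Mcm7 (-0.23), the reductase subunit Rrm2 (-0.26), the origin subunit Orc1 (-0.48) and Tyms (-0.76), and each of these 4 fell in IkL/L.

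By role, all 5 genes of helicase activation fell in both genotypes, with medians of -1.85 in IkL/L and -1.98 in WT. The 6 polymerase and primase genes also all fell in both, from -1.15 (Prim2) to -2.03 (Pola1) in IkL/L and from -1.24 (Pola2) to -1.96 (Pole) in WT. The clamp Pcna fell by 0.82 in IkL/L and by 0.55 in WT, less than its loader subunits Rfc2 to Rfc5, whose falls ran from 1.22 to 2.01 in IkL/L and from 1.19 to 2.26 in WT. Among the ring subunits Mcm3 and Mcm6 fell by 1.71 and 1.74 in IkL/L and by 1.89 and 1.81 in WT, and Mcm4 by 0.98 in IkL/L and 0.77 in WT. The flap nuclease Fen1 fell by 0.64 in IkL/L and 0.70 in WT, and the ligase Lig1 by 1.73 in IkL/L and 1.66 in WT. Chaf1b, a subunit of the histone chaperone CAF-1, fell by 2.07 in IkL/L and 1.91 in WT, and Uhrf1, which brings the maintenance methylase to new DNA, by 1.61 in IkL/L and 1.43 in WT.

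The size of the step between DN4 and DP cells did not pass a test of difference between genotypes for any member. The count was 0 of 38 in limma, beside 0.987% of all genes. At an unadjusted p under 0.05 the difference, IkL/L minus WT, was below 0 for 3 members and above 0 for none. Of the 11649 tested genes it was below 0 for 801 and above 0 for 954 at that threshold, 15.1% in either direction. For 36 of 38 members the estimate of that difference was under 0.5 log2 units in size, with a median SE of 0.22. The exceptions were Tyms at -1.33 ± 0.68 and Orc1 at -1.05 ± 0.52. Leaving out any 1 array left the count at 0.

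**Figure D2:**
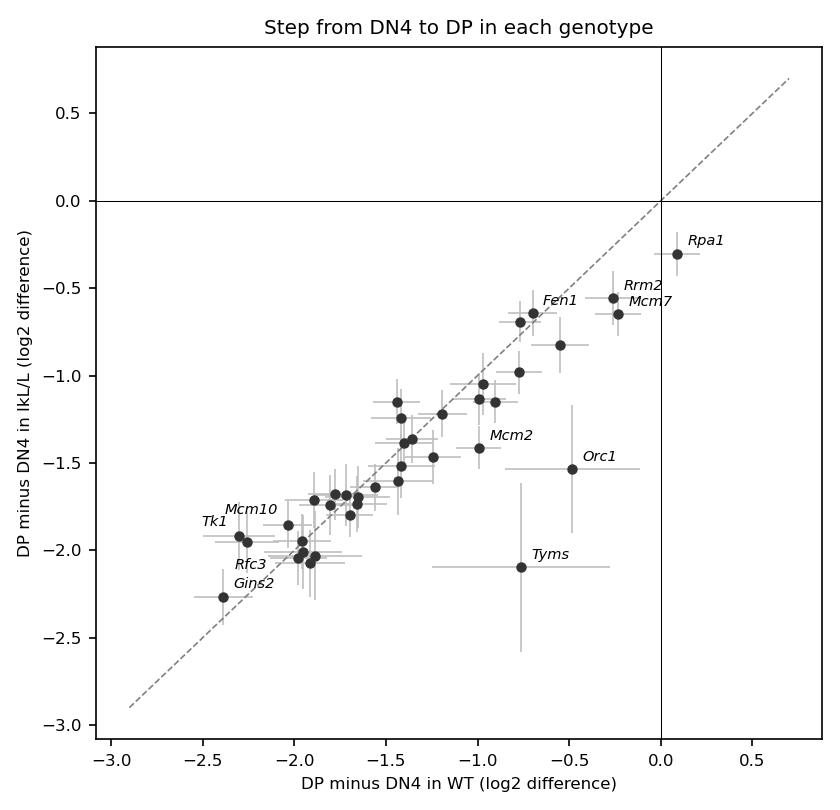
Log2 difference between DP and DN4 cells in IkL/L (vertical axis) against WT (horizontal axis), with 1 point per member, bars giving the moderated SE and the dashed line marking equal steps. Of the 38 points 24 lie below the line, and Tyms and Orc1 lie furthest from it.

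Between DN3 and DN4 cells the members moved by small amounts, mostly upward. Estimates were above 0 for 37 of 38 members in IkL/L and 31 in WT, beside 5774 and 5298 of the 11649 tested genes. In IkL/L 15 members and in WT 6 had an unadjusted p under 0.05 in limma, all higher in DN4. Of all tested genes 887 in IkL/L and 841 in WT were higher at that threshold. Cdc6, the licensing factor that joins the origin complex, rose by 0.55 in IkL/L, and Gins1, another GINS subunit, by 0.63. These were the 2 calls in IkL/L, a share to set beside 1.20% of all genes, and none fell. In WT 3 members rose, beside 1.55% of all genes, and none fell: Orc6 by 0.51, Mcm10 by 0.49 and Cdc6 by 0.45. The median over 38 members was 0.32 in IkL/L and 0.16 in WT, while that over all genes was 0.00 in IkL/L and -0.03 in WT.

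Gins1 read 10.99 and 10.91 in IkL/L DN4 cells against 10.47 and 10.16 in IkL/L DN3 cells, and 10.71 and 10.61 in WT DN4 cells against 10.09 and 10.15 in WT DN3 cells. The WT difference of 0.54 had an adjusted p of 0.0521 in limma although the groups did not overlap. Orc6, the smallest origin subunit, read 10.19 and 10.24 in IkL/L DN4 cells against 9.70 and 9.65 in IkL/L DN3 cells, and 10.001 and 9.985 in WT DN4 cells against 9.44 and 9.53 in WT DN3 cells. Mcm10 read 9.81 and 9.72 in IkL/L DN3 cells and 9.64 and 9.78 in WT DN3 cells, all below its DN4 values. Cdc6 read 11.17 and 11.18 in IkL/L DN4 cells against 10.63 and 10.61 in IkL/L DN3 cells, and 10.952 and 11.003 in WT DN4 cells against 10.42 and 10.63 in WT DN3 cells.

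The lowest WT differences at this step did not pass the test. Mcm7 differed by -0.19, Mcm6 by -0.17, and Prim2 and Uhrf1 by -0.08 each. Mcm6 read 12.92 and 12.99 in IkL/L DN4 cells against 12.84 and 12.44 in IkL/L DN3 cells, and 12.59 and 12.65 in WT DN4 cells against 12.72 and 12.86 in WT DN3 cells. Uhrf1 read 11.63 and 11.68 in IkL/L DN4 cells against 11.52 and 11.24 in IkL/L DN3 cells, and 11.25 and 11.43 in WT DN4 cells against 11.34 and 11.50 in WT DN3 cells, where the WT groups overlapped. The calls at this step were few and rested on single arrays. The count in IkL/L was 0 without either IkL/L DN4 array, and 1 without IkL/L DN3 replicate 2 or any 1 WT DN3 or WT DN4 array. The count in WT was 0 without any 1 WT DN3, WT DN4 or IkL/L DN4 array and 1 without either IkL/L DP array. Both counts were 0 without the 3 IkL/L replicate 2 arrays.

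Ikaros deficiency was compared with WT at each stage. In DN3 cells no member passed the test in limma, beside 4.28% of all genes called in either direction. At an unadjusted p under 0.05, 5 of 38 members were higher in IkL/L and none lower. Of the 11649 tested genes 694 were higher and 1111 lower at that threshold, 15.5% in either direction. The median difference was 0.12. Both IkL/L arrays lay above both WT arrays for 16 of 38 members, beside 19.7% of all genes, and below them for 3, beside 26.7% of all genes. Without IkL/L DN3 replicate 1 the count was 2, and Tyms was then called at 1.79. Without either WT DP array it was 1.

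In DN4 cells 3 members were higher in IkL/L and none lower, beside 4.40% of all genes higher and 2.48% lower. These were Tyms, Rrm2 and Mcm7. The median difference over members was 0.30, beside 0.00 over all genes, and 34 of 38 estimates were above 0. Both IkL/L arrays lay above both WT arrays for 25 of 38 members, beside 32.0% of all genes, and below for 1, Fen1 at -0.10, beside 28.6% of all genes.

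Tyms, the thymidylate synthase that makes dTMP, had the widest range of all members. It read 7.42 and 8.34 in IkL/L DN4 cells, against 6.17 and 5.91 in WT DN4 cells. The groups did not overlap, and the difference was 1.84 ± 0.48 with an adjusted p of 0.0430 in limma. In DN3 cells it read 5.98 and 7.503 in IkL/L against 5.85 and 5.58 in WT, and in DP cells 6.25 and 5.32 in IkL/L against 5.79 and 4.77 in WT, where the groups overlapped. This probe set was dim, with 11 of 12 arrays above their array median, and IkL/L replicate 2 was the higher array in DN3 and DN4 cells. A second Tyms probe set gave 0.26 for the DN4 difference. Without the 3 IkL/L replicate 2 arrays the difference was 1.39 (adjusted p = 0.0566 in limma).

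Rrm2, the small subunit of ribonucleotide reductase that is made in S phase, read 12.76 and 13.04 in IkL/L DN4 cells, against 12.29 and 12.29 in WT DN4 cells. In DN3 cells it read 12.30 and 12.42 in IkL/L against 11.77 and 11.93 in WT, and in DP cells 12.45 and 12.24 in IkL/L against 12.19 and 11.87 in WT. IkL/L arrays lay above WT arrays at all 3 stages. The differences were 0.52 in DN3, 0.61 in DN4 (adjusted p = 0.0361 in limma) and 0.31 in DP cells, and the other Rrm2 probe sets gave 0.28 and 0.65 in DN4 cells.

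Mcm7, a subunit of the helicase ring, read 13.51 and 13.63 in IkL/L DN4 cells, against 12.98 and 13.23 in WT DN4 cells. It read 13.48 and 13.45 in IkL/L DN3 cells against 13.31 and 13.28 in WT DN3 cells, and 12.97 and 12.87 in IkL/L DP cells against 12.85 and 12.90 in WT DP cells. The groups overlapped in DP cells alone. The DN4 difference was 0.46 ± 0.13 (adjusted p = 0.0475 in limma), and 3 other Mcm7 probe sets gave 0.29 to 0.39. The 3 DN4 calls were close to the threshold: the count was 0 without any 1 of the WT DN3, WT DN4 or IkL/L DN4 arrays, 2 without either IkL/L DP array, 5 without either WT DP array, and 0 without the 3 IkL/L replicate 2 arrays.

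In DP cells 1 member was higher in IkL/L and none lower, beside 4.36% of all genes higher and 1.62% lower. This was Prim2, the large subunit of the primase that makes the RNA primer. It read 9.04 and 9.14 in IkL/L DP cells, against 8.53 and 8.28 in WT DP cells. It read 10.20 and 10.28 in IkL/L DN4 cells against 9.93 and 9.77 in WT DN4 cells, and 10.32 and 10.31 in IkL/L DN3 cells against 9.96 and 9.90 in WT DN3 cells. The IkL/L arrays were above the WT arrays at every stage. The DP difference was 0.68 ± 0.13 (adjusted p = 0.00752 in limma), a second bright probe set gave 0.63, and one more near the array median gave -0.12. It was 0.63 without IkL/L DP replicate 2 (adjusted p = 0.067 in limma) and 0.63 without the 3 IkL/L replicate 2 arrays (adjusted p = 0.0948 in limma), and the count of calls was 3 without WT DP replicate 1. Both IkL/L arrays lay above both WT arrays for 15 members at this stage, beside 26.0% of all genes, and below for 4, beside 18.0% of all genes.

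**Figure D3:**
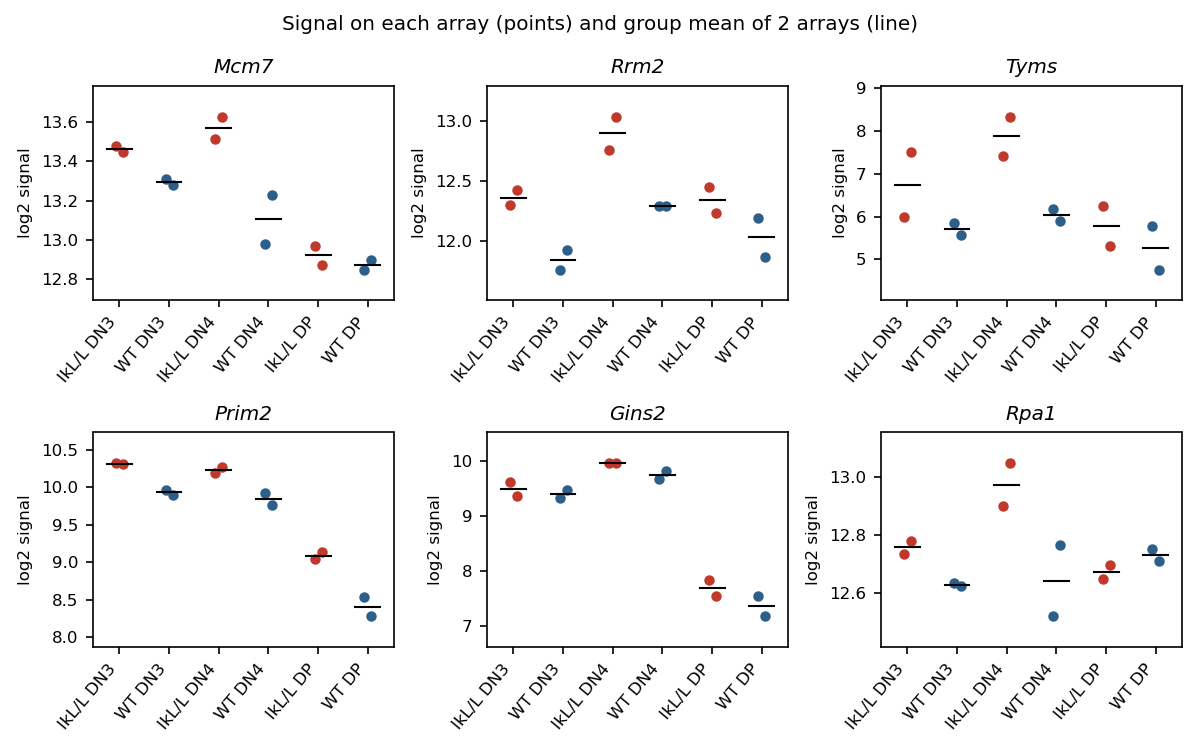
Log2 signal of Mcm7, Rrm2, Tyms, Prim2, Gins2 and Rpa1 on each array, with IkL/L in red and WT in blue, points for arrays and lines for the mean of 2 arrays. Each panel has its own axis that does not start at 0, and Prim2 and Rrm2 points of IkL/L lie above those of WT at every stage.

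Averaged over the 3 stages, 12 of 38 members were higher in IkL/L and none lower, beside 9.01% of all genes higher and 6.49% lower. Tyms (1.13), Rfc4 (0.51), Prim2 (0.48) and Rrm2 (0.48) had the largest differences. The others were Cdt1, Pole, Tk1, Rfc3, Prim1, Pold1, Rrm1 and Mcm5, with differences from 0.37 for Cdt1 down to 0.23 for Mcm5. By role these were 4 of the 5 genes of nucleotide supply, 4 of the 6 polymerase and primase genes, 2 of the 5 clamp and loader genes, 1 ring subunit and 1 licensing factor. No gene of helicase activation, of single-strand binding and maturation or of chromatin behind the fork was called. The median over members was 0.21, beside -0.01 over all genes, and 32 of 38 estimates were above 0. The polymerase alpha subunit Pola2 had the lowest estimate, -0.23, which did not pass.

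Both IkL/L arrays exceeded both WT arrays at all 3 stages for 8 members, beside 6.85% of all genes, and were below at all 3 for none, beside 3.94% of all genes. These 8 were Mcm4, Mcm5, Cdt1, Rfc4, Pold1, Prim2, Rrm2 and Tk1. The 12 calls became 5 without IkL/L DN4 replicate 2, IkL/L DP replicate 1, WT DN3 replicate 1 or WT DN4 replicate 1, 6 without WT DN3 replicate 2 and 7 without WT DN4 replicate 2 or WT DP replicate 2. Without the 3 IkL/L replicate 2 arrays 8 members were called. Prim2, Rrm2 and Cdt1 were called whichever single array was left out. Without those 3 arrays Prim2 (0.46) and Rrm2 (0.45) kept the call, while Cdt1 at 0.30 did not (adjusted p = 0.10 in limma). On the second brightest probe set the averaged difference was 0.23 for Tyms, 0.21 for Rrm2 and 0.23 for Cdt1, and these 3 calls were lost (adjusted p of 0.265, 0.292 and 0.10 in limma). The calls of Mcm5, Rfc3, Rfc4, Pold1, Rrm1 and Tk1 were lost there too. Of the 12 only Pole, Prim1 and Prim2 stayed called. With genotype and replicate number as a random block 6 members were called in place of 12.

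**Figure D4:**
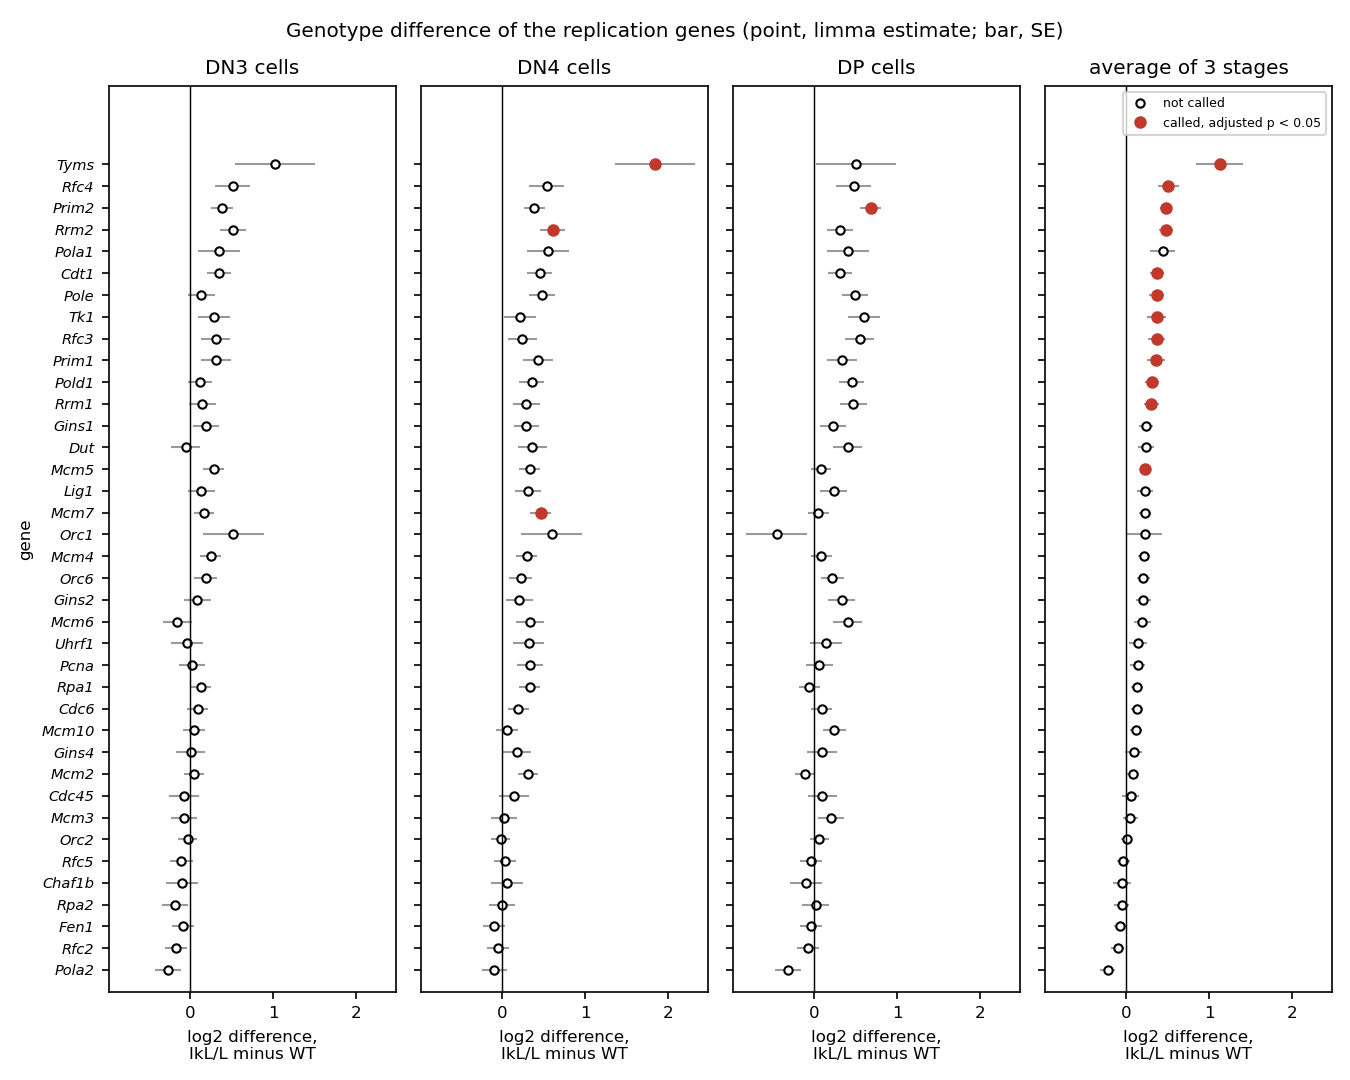
Log2 difference between IkL/L and WT for each member in DN3, DN4 and DP cells and averaged over the stages, with points for limma estimates, bars for the moderated SE and filled points for calls. Genes run from the highest average difference (Tyms) to the lowest (Pola2), and estimates lie mostly to the right of 0.

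The effect of Ikaros deficiency did not pass a test of difference between DN4 and DN3 cells for any member. The count was 0 of 38 in limma, beside 0.0515% of all genes, and no member had an unadjusted p under 0.05, beside 9.67% of all genes. The estimates ran from -0.08 to 0.82, and 37 of 38 were under 0.5 in size. The calls in DN4 cells are therefore not shown to be particular to that stage.

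Different probe sets of a member did not always give the same step. Beyond the probe set with the highest mean, 27 members had 37 others that passed the filter. For the difference between DP and DN4 cells in WT, 24 of the 37 gave a lower value than the brightest, and their median was -1.65 against -1.40. In IkL/L 25 of 37 gave a lower value, with medians of -1.68 and -1.47. Mcm5 gave -2.48 on its other probe set against -0.90 on the brightest, Fen1 -2.02 against -0.70, and Orc1 -1.65 against -0.48. Mcm7, not called in WT on the brightest, gave -1.68, -1.16 and -0.70 on its other probe sets, and Rrm2 -1.41 and -0.996. In the other direction, second probe sets of Cdc45 (0.24) and Pola2 (0.17) and a dimmer one of Prim2 (0.08) had values above 0. For the DN4 difference between genotypes 29 of 37 gave a lower value than the brightest, with medians of 0.19 and 0.32.

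**Figure D5:**
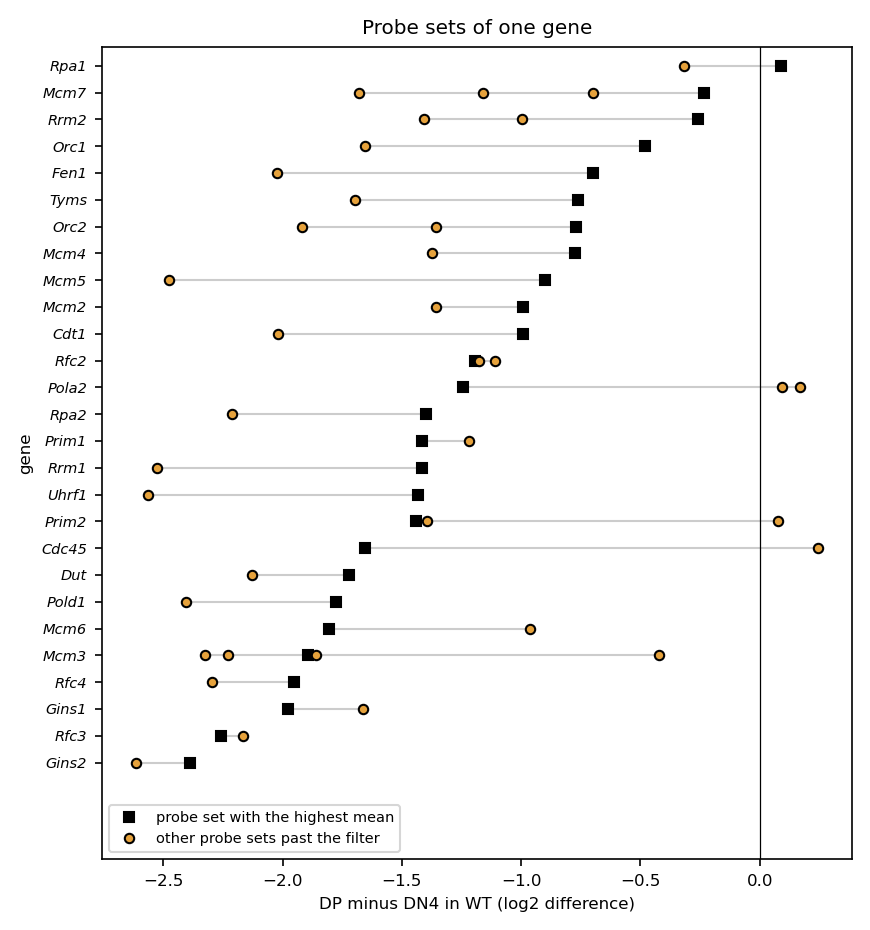
Log2 difference between DP and DN4 cells in WT for every probe set past the filter of the 27 members that have several, with squares for the probe set used and circles for the others. Circles lie to the left of the square for 24 of 37, and circles of Pola2, Prim2 and Cdc45 lie at or above 0.

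A wider list of 51 replication genes that are not members had 49 tested. At the step between DN4 and DP cells 42 fell and 2 rose in IkL/L, where 26.0% of all genes fell and 19.5% rose. In WT 43 fell and 2 rose, where 33.2% of all genes fell and 23.8% rose. The largest WT falls were those of the uracil glycosylase Ung (-2.60), the dCTP hydrolase Dctpp1 (-2.56), the helicase Mcm8 (-2.48) and the clamp loader subunit Chtf18 (-2.40). The 2 that rose in both were Dck (0.69 in IkL/L and 1.26 in WT), the deoxycytidine kinase, and Rrm2b (0.92 in IkL/L and 0.995 in WT), a reductase subunit known from resting cells. Between DN3 and DN4 cells 4 rose in IkL/L (Clspn, Rpa3, Exo1 and Brca1) and 2 in WT (Samhd1 and Exo1), and none fell. Of all genes 1.20% rose and 3.19% fell in IkL/L, and 1.55% rose and 7.70% fell in WT.

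In the same list no gene was called between genotypes in DN3 cells, beside 4.28% of all genes. In DN4 cells the checkpoint adaptors Clspn (0.56) and Topbp1 (0.54) and the methylase Dnmt1 (0.51) were higher in IkL/L, while the dNTP hydrolase Samhd1 (-0.85) and the polymerase delta subunit Pold4 (-0.73) were lower. Of all genes 4.40% were higher there and 2.48% lower. In DP cells 1 was called, the helicase activator Ticrr at 0.69, beside 4.36% of all genes higher and 1.62% lower. Averaged over stages 13 were higher and 2 lower, beside 9.01% of all genes higher and 6.49% lower. The largest were Mcmbp (0.44), Samhd1 (-0.42), Gmnn (0.41) and Chek1 (0.41). Gmnn encodes geminin, the inhibitor of Cdt1. The median over the list was 0.13.

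Among 26 regulators of replication, 15 (57.7%) fell and 7 (26.9%) rose at the step between DN4 and DP cells in each genotype. Of all genes 26.0% fell and 19.5% rose in IkL/L, and 33.2% fell and 23.8% rose in WT. The count that rose is thus near the share of all genes. Myc, the growth factor-induced activator, fell by 3.20 in IkL/L and by 4.06 in WT, Mybl2 by 1.81 in IkL/L and 2.07 in WT, E2f6 by 1.77 in IkL/L and 1.87 in WT, and E2f3 by 1.74 in IkL/L and 1.56 in WT. The retinoblastoma relative Rbl2 rose by 1.07 in IkL/L and 1.69 in WT, and the cyclin-dependent kinase inhibitor Cdkn1b by 1.37 in IkL/L and 1.64 in WT. Between DN3 and DN4 cells 7 rose and 1 fell in IkL/L, where 1.20% of all genes rose and 3.19% fell. In WT 2 rose and 2 fell, where 1.55% of all genes rose and 7.70% fell. Cdkn1a, the inhibitor p21, fell by 1.05 in IkL/L and by 2.13 in WT, and the cyclin Ccne1 rose by 0.89 in IkL/L and 1.10 in WT.

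Between genotypes none of the regulators was called in DN3 cells, beside 4.28% of all genes. In DN4 cells 5 were higher in IkL/L, with Cdkn1a (0.72), E2f3 (0.64) and Tfdp2 (0.61) in front, and 1 was lower, E2f5 (-1.36). Of all genes 4.40% were higher there and 2.48% lower. In DP cells Cdkn1c (1.55), Cdkn1a (1.24) and Myc (1.19) were higher and none lower, beside 4.36% of all genes higher and 1.62% lower. Averaged over stages 7 were higher and 1 lower, beside 9.01% of all genes higher and 6.49% lower. Both an activator of the cycle and 2 kinase inhibitors were thus higher in the IkL/L DP samples.

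The 25 tested genes of a mitosis list all fell between DN4 and DP cells in both genotypes, with medians of -1.20 in IkL/L and -1.19 in WT. Of all genes 26.0% fell in IkL/L and 33.2% in WT. Between genotypes none was called in DN3 cells, beside 4.28% of all genes. In DN4 cells Mki67 (0.53) was higher in IkL/L, and in DP cells 5 were, with Ube2c (1.20), Nusap1 (0.69), Cenpf (0.59) and Cenpa (0.57) in front. Of all genes 4.40% were higher in DN4 and 4.36% in DP cells. Averaged over stages 13 were higher and none lower, with a median of 0.34, beside 9.01% of all genes higher and 6.49% lower. The mean log2 signal of the list was 10.67 in IkL/L and 10.35 in WT DN4 cells, and 9.45 in IkL/L and 9.01 in WT DP cells.

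Other markers moved beside these differences, and their part in them was not tested. The 7 DN3 markers summed to 1787 to 2495 in IkL/L DP cells against 606 to 788 in WT DP cells on the linear scale, a difference that lay mainly in Dtx1 (9.63 in IkL/L DP and 7.10 in WT DP cells on the log2 scale) and Ptcra (10.04 in IkL/L DP and 8.41 in WT DP cells). Hes1 (5.88 and 5.24) and Nrarp (6.62 and 6.52) also averaged more in IkL/L DP than in WT DP cells. Il2ra (4.81 and 4.96), Cdh1 (3.45 and 3.57) and Erg (5.14 and 5.21) averaged less in IkL/L DP than in WT DP cells. None of these 5 differences passed the test, and Il2ra and Cdh1 lay below the array median on every DP array. The same list summed to 4207 to 4227 in IkL/L DN3 cells against 6450 to 6607 in WT DN3 cells. The DP markers, 6 of 7 on the array, summed to 5587 to 6184 in IkL/L DN4 cells against 7051 to 7893 in WT DN4 cells, with Cd69 (-3.07), Cd8b1 (-1.65) and Ccr9 (-1.53) lower in IkL/L, while Cd8a (-0.67), Cd4 (0.24) and Rag1 (0.52) did not pass. The quiescence markers Btg1, Btg2, Klf2 and S1pr1 summed to 9208 to 9833 in IkL/L DP and 9235 to 10839 in WT DP cells, against 2021 to 2130 in IkL/L DN4 and 1968 to 2270 in WT DN4 cells. That rise lay in Btg1 (2.318 in IkL/L and 2.275 in WT) and Btg2 (2.086 in IkL/L and 2.657 in WT). Klf2 fell in WT (-1.745) and was not called in IkL/L (-0.248), and S1pr1 did not pass the brightness filter. Of 11 myeloid markers the sum was 514 to 1542 in IkL/L DN3 cells and 419 to 432 in WT DN3 cells, and 316 to 546 in IkL/L DN4 cells and 378 to 390 in WT DN4 cells. The summed B cell markers were lower in IkL/L than in WT in DN3 cells (375 to 509 against 693 to 782) and in DN4 cells (392.3 to 424.3 against 623.3 to 742.3), and higher in DP cells (582 to 600 against 408 to 478). Of them only Blk was called, at -1.73 in DN3 and -1.46 in DN4 cells. Cd79b differed by -0.67 in DN3, 0.00 in DN4 and 0.70 in DP cells. Pax5 and Cd22 were not called at any stage, and the rest did not pass the brightness filter. The gamma-delta and NK markers, 3 of 6 on the array, summed to 218.8 to 220.7 in IkL/L DN4 cells against 486.7 to 656.3 in WT DN4 cells, and to 484.0 to 714.4 in IkL/L DN3 cells against 1316.5 to 1546.8 in WT DN3 cells. Of these Nkg7 (-2.30) and Sox13 (-1.06) were lower in IkL/L DN4 cells. The erythroid markers, 4 of 6 on the array, summed to 163.4 to 510.9 in IkL/L DN4 cells against 214.9 to 275.2 in WT DN4 cells, and to 165.7 to 575.8 in IkL/L DN3 cells against 196.6 to 256.6 in WT DN3 cells. The actin 3′ minus 5′ signal was 1.92 and 2.86 in IkL/L DN3 cells against 2.15 and 2.04 in WT DN3 cells.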

How the data were processed

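RNA of 12 samples was measured on Affymetrix arrays. The authors deposited log2 values per probe set, made with RMA per the submitters' processing notes, with no version given. The labels describe biotin-labelled cRNA from 2 rounds of amplification, with input amounts that differed between labelling series not assigned to samples. No column was left unmapped. Arrays give no read depth, and precision depends on how many there are.

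Of 45099 probe sets, 34958 had 1 gene symbol in the platform table. The brightest probe set on average stood for its gene. Genes that reached the median of the array on 2 or more arrays, 11649 in number, entered a fit in limma 3.58.1 (R 4.3.3) with 1 mean per group over all 12 arrays and Benjamini-Hochberg adjustment over all tested genes at 0.05. Every adjusted p in the text comes from limma. The code was tested on simulated data. The members, gene lists and tests were chosen with earlier results of these data known. Genes named with every array were Ikzf1, members called between genotypes at a stage, the 4 members with the largest rise and fall of each WT step, and those with the widest and narrowest range. From the other lists up to 4 called genes per contrast were named, largest first, plus counterparts given for both genotypes and completions of counts of 5 or fewer, chosen after their values were seen. Levels of different probe sets were not compared. Promoters are RefSeq's of GRCm38.p6. The build of the array annotation is not given in the sources used here. Alternatives covered the filter, probe set choice, prior, array weights, scaling, blocks, an actin covariate, the arrays fitted and the call rule.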

Additional observations from a re-analysis of the deposited data

How the results depend on the processing

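The fall of the replication genes between DN4 and DP cells kept 35 to 37 calls in IkL/L and 32 to 33 in WT when any 1 array was left out, and its counts stayed within 1.5 times of 37 and 33 under every other alternative run. The counts between genotypes and between DN3 and DN4 cells did not. With 1 array left out they ran from 0 to 2 in DN3, 0 to 5 in DN4 and 1 to 3 in DP cells, from 5 to 13 averaged over stages, from 0 to 3 for the step from DN3 to DN4 in IkL/L and from 0 to 4 in WT, while both tests of a difference between stages stayed at 0. In such fits a lone array is assumed to vary like the other groups.

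For DN3 cells a trended, robust prior gave 1 call in place of 0. For DN4 cells, with 3 calls, the mean of all probe sets of a gene gave 0, array weights 7, a second quantile normalization 1, the fit without the 3 IkL/L replicate 2 arrays 0, the second brightest probe set 0, an adjusted p under 0.01 gave 0 and a minimum difference of 1 left 1. For DP cells, with 1 call, the DP arrays alone gave 0, the second brightest probe set 2 and the minimum difference 0. Averaged over stages, with 12 calls, the mean of probe sets, the second quantile normalization, a random block for genotype and replicate number and the second brightest probe set gave 6 each. An adjusted p under 0.01 gave 2 and the minimum difference 1. On the second brightest probe set only Pole, Prim1 and Prim2 of the 12 stayed called, and the rest of its calls were of other members. For the step from DN3 to DN4 in IkL/L, with 2 calls, the mean of probe sets gave 6, the trended prior 5, array weights 1, the second quantile normalization 0, the random block 7, the actin covariate 6, and the second brightest probe set 1. Fitting only the arrays of the contrast, leaving out the 3 IkL/L replicate 2 arrays, the stricter p and the minimum difference each gave 0. For that step in WT, with 3 calls, the mean of probe sets, the trended prior, array weights, the second quantile normalization, the actin covariate and the contrast's own arrays gave 5 each, the second brightest probe set gave 1, and centring on the array median, leaving out the 3 arrays, the stricter p and the minimum difference gave 0. The causes were not tested. The share of all genes called under each alternative is not given here, so a changed count need not be particular to the members. The second brightest probe set was chosen as an alternative after seeing the data. Under it the averaged difference of Rpa2 turned to 0.445, and the WT difference between DP and DN4 cells to 0.244 for Cdc45 and 0.169 for Pola2.

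The second quantile normalization moved the median of all genes in DN4 cells to -0.11 and called 364 genes higher and 704 lower in IkL/L, in place of 513 and 289, and the members' median was then 0.09. Averaged over stages it called 833 higher and 1087 lower, in place of 1050 and 756, and the members' median was 0.10. The sign of the members' median was kept, while its size depended on the scaling.

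Replicate numbers were not shown to pair samples between genotypes: at one stage the correlation of their deviations ran from -0.10 to 0.06. Within a genotype it was 0.49 between IkL/L DN3 and DN4 arrays and 0.15 to 0.32 between WT stages. It was 0.086 between IkL/L DN3 and DP arrays and 0.015 between IkL/L DN4 and DP arrays. The IkL/L replicate 2 arrays share low Y-linked signal at all 3 stages. A number may therefore tie arrays of different stages within a genotype, though the correlations with the IkL/L DP arrays do not show it. With the replicate block the DN4 count was 1 in place of 3, without Mcm7 and Tyms. Mcm5 and Rrm1 lost the call in the average, and Mcm10 and Cdc6 that between WT DN3 and DN4 cells, where Gins1 gained one. The other counts stayed within 1.5 times.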
